A study of Mus musculus with 6 samples.

Results

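The 10 genes described here encode 4 syndecans (*Sdc1*, *Sdc2*, *Sdc3*, *Sdc4*), 4 glypicans (*Gpc1*, *Gpc3*, *Gpc4*, *Gpc6*) and both extracellular heparan sulfatases (*Sulf1*, *Sulf2*). They were picked by gene symbol from the 49548 genes of a count table, and 10 of the 10 passed the filter on low counts that 15789 genes passed. The table holds the mRNA of native cardiac fibroblasts (CFs), the cells left after hearts of C57BL/6J mice aged 5 weeks were dissociated, freed of red cells and depleted of hematopoietic lineages. The WT group has 3 libraries and the CharmeKO group 3. CharmeKO mice carry a polyadenylation signal inserted in the *Charme* locus, which encodes a long non-coding RNA of heart and skeletal muscle, in every cell of the body and not in fibroblasts alone. The labels also list a culture medium for these libraries, whereas the methods describe native CFs as freshly isolated. In such bulk samples, fewer cells of a type and less RNA per cell cannot be told apart.

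Heparan sulfate is a long sulfated sugar chain that cells attach to a small set of core proteins. Syndecans carry it on a transmembrane protein with a short cytoplasmic tail, and glypicans on a globular protein held in the outer membrane by a glycolipid anchor. The pattern of sulfates along the chain sets which growth factors, morphogens and chemokines it can hold. SULF1 and SULF2 are secreted enzymes that remove 6-O-sulfates from finished chains outside the cell, which weakens FGF2 signalling and releases other ligands such as Wnt proteins and VEGF. In the heart, syndecan 4 is best known for its increase after injury.

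The coding sequences show what each group shares. The last 48 bases of the 4 syndecan coding sequences are given because they encode the end of the cytoplasmic tail, with the last 4 codons before the stop in capitals, where PDZ-domain proteins such as syntenin bind.
Sdc1: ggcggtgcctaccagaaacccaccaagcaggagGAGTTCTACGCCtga
Sdc2: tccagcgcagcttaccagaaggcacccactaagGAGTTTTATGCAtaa
Sdc3: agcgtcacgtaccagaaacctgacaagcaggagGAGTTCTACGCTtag
Sdc4: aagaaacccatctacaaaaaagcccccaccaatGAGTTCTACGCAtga
The capitals of *Sdc1* matched those of *Sdc3* in 11 of 12 bases and those of *Sdc2* in 9 of 12. For the sulfatases, 75 bases of each coding sequence are given around the codons of the active site, with the cysteine that becomes the catalytic formylglycine and the 4 codons after it in capitals.
Sulf1: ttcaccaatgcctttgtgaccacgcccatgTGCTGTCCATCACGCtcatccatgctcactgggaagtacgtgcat
Sulf2: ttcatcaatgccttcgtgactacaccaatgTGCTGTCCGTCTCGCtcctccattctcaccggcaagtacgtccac
The stretches of *Sulf1* and *Sulf2* were identical in 62 of 75 bases. The sequences come from the GENCODE M21 transcripts of the GRCm38 build, which is another build than that of the counts, so no coordinates are given.

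Chains are attached at serines followed by glycine, and the coding sequences held between 2 such pairs, in *Gpc3*, and 8, in *Sdc3*. *Gpc3* and *Gpc4* both lie on chromosome X, *Gpc1* and *Sulf1* on chromosome 1, and *Sdc4* and *Sulf2* on chromosome 2. For each of the 10 genes, the transcript with the longest coding sequence was compared with the transcripts of other genes. None had a stretch of at least 97% identity. The closest pair of members by aligned length, *Gpc4* and *Gpc6*, was 69.2% identical over 1339 bases. Other transcripts of the 10 genes were not searched.

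Between 9595701 and 42101393 reads were counted on genes in WT libraries and between 23550718 and 31048606 in CharmeKO libraries, with the fewest in WT replicate 3. Each member had at least 283 counts in each library. For the targeted transcript *Charme*, WT libraries held 26, 15 and 4 reads, and CharmeKO libraries held 7, 0 and 0. Levels are given in CPM, the count relative to a TMM-adjusted library size, and the error after ± is the SD over the libraries of a group (n = 3) unless stated otherwise. The 12 fibroblast markers summed to between 32680 and 38650 CPM in WT and between 30501 and 35841 CPM in CharmeKO. Endothelial markers were present too, with summed levels between 9664 and 12277 CPM over all 6 libraries, as were mural markers, between 2595 and 3070 CPM. Erythroid transcripts remained after the red cell lysis, with a sum between 26792 and 39242 CPM in WT and between 24418 and 31751 CPM in CharmeKO. *Xist* exceeded the Y-linked transcripts in WT replicate 1 and in CharmeKO replicates 1 and 2, and the reverse held in the other 3 libraries. CharmeKO replicate 1 held both, with 13553 *Xist* and 59 *Ddx3y* counts, as did WT replicate 2, with 67 and 1502, and CharmeKO replicate 3, with 9 and 1479.

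Of the 10 members, 1 passed the adjusted threshold, *Sulf2*, and it was lower in CharmeKO. The quasi-likelihood test of edgeR, at a threshold of 0.05 on p-values adjusted over all genes tested, called 0.83% of those genes in either direction and 0.412% lower. DESeq2 called 2 of the 10, *Gpc1* and *Sulf2*, both lower, against 2.5% of all genes in either direction and 1.52% lower. In 3 members, *Sulf2*, *Gpc1* and *Sdc1*, all CharmeKO libraries lay below all WT libraries, and in 0 members all lay above, against 8.59% and 9.57% of the genes tested. The same 3 members had an unadjusted p-value under 0.05, all 3 lower, against 12.8% of the genes tested in either direction and 6.87% lower. The median log2 fold change was −0.18 over the 10 members and 0.0096 over all genes tested, and 6 of the 10 were below 0, against 48.8% of the genes tested.

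**Figure D1:**
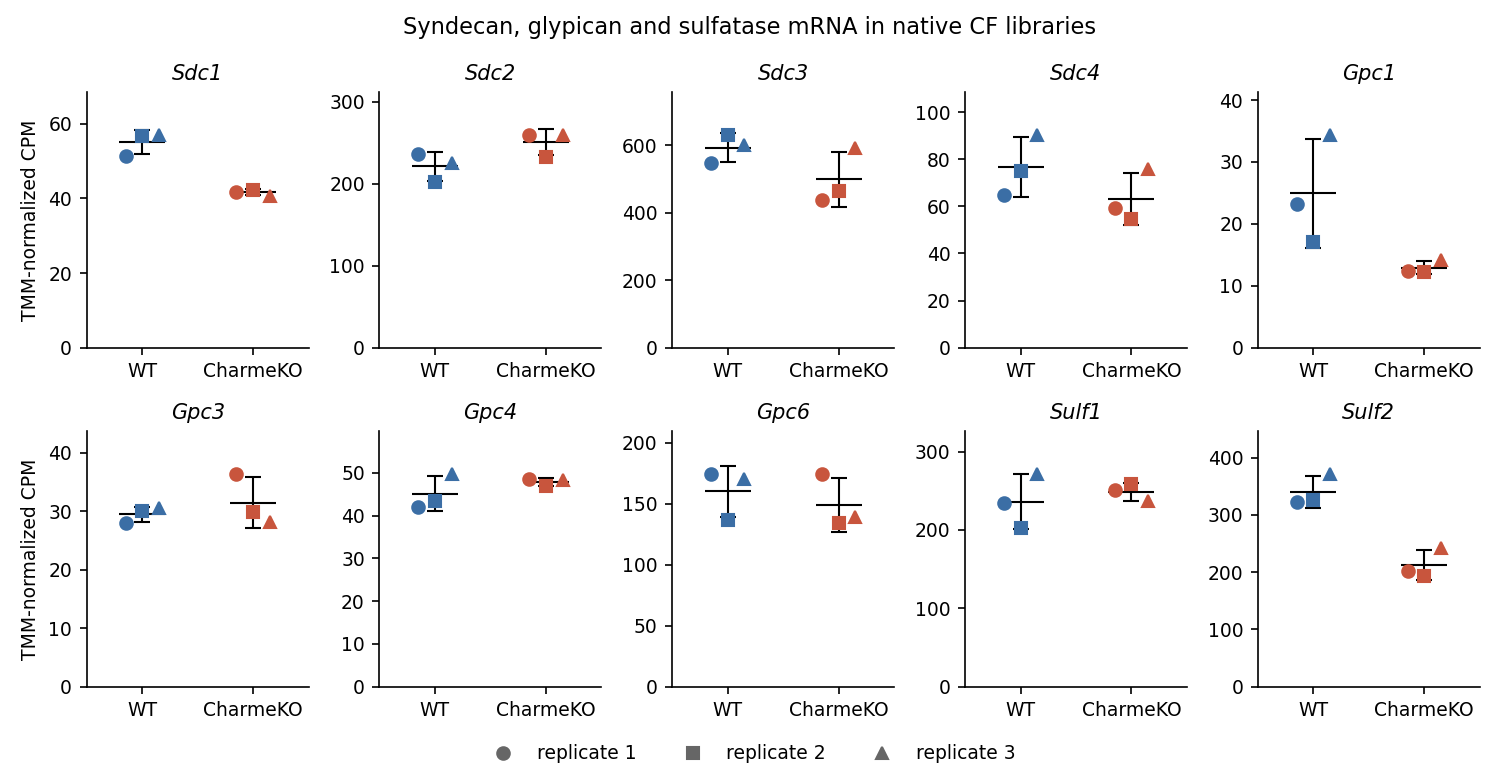
CPM (TMM-normalized, y axis from 0) of each of the 10 genes in the 3 WT and 3 CharmeKO libraries, with a marker shape for each replicate number and black bars for the mean and SD. *Sulf2* lay between 322 and 372 CPM in WT and between 194 and 242 CPM in CharmeKO, while *Sulf1* overlapped between the groups.

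The levels of the genes were compared per length, as CPM per kb of exon, with the mean and SD over all 6 libraries. *Sdc3*, the syndecan best known from nervous tissue and muscle, had the highest level, 91.2 ± 13.0 CPM per kb (SD, n = 6). *Sdc2*, the syndecan typical of mesenchymal cells, followed at 66.8 ± 6.23, then *Sulf2* at 47.1 ± 12.6, *Sdc4* at 27.5 ± 5.15 and *Gpc6* at 24.1 ± 3.13 CPM per kb. *Sulf1* was at 21.5 ± 2.13, *Gpc4* at 17.5 ± 1.17, *Sdc1* at 12.7 ± 2.01 and *Gpc3* at 11.3 ± 1.15 CPM per kb. *Gpc1* was the lowest at 3.67 ± 1.67 CPM per kb, and its neighbour *Gpc3* was 3.08 times higher, with no overlap between their libraries. *Gpc4* and *Sdc1* did not overlap either, at a ratio of 1.38. The ranges of the other 7 pairs of neighbours overlapped over the 6 libraries of both genotypes. Within each library, *Sdc2* exceeded *Sulf2*, *Sulf2* exceeded *Sdc4* and *Sulf1* exceeded *Gpc4* in 6 of 6, while *Sdc3* exceeded *Sdc2*, *Gpc6* exceeded *Sulf1* and *Sdc1* exceeded *Gpc3* in 5 of 6, and *Sdc4* exceeded *Gpc6* in 4 of 6. By genotype, the ratio of *Gpc3* to *Gpc1* was 2.26 in WT and 4.65 in CharmeKO, and that of *Sdc1* to *Gpc3* was 1.32 in WT and 0.935 in CharmeKO, where the order turned. The order rests on the length used. With the length of the transcript that has the longest coding sequence, *Gpc6* moved up to 63.8 ± 8.31 and *Sulf1* to 43.3 ± 4.30 CPM per kb. That transcript of *Gpc6* has 2423 bases, against 6425 bases of exon in all its transcripts. *Sdc3*, *Sdc2* and *Gpc1* kept their places.

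**Figure D2:**
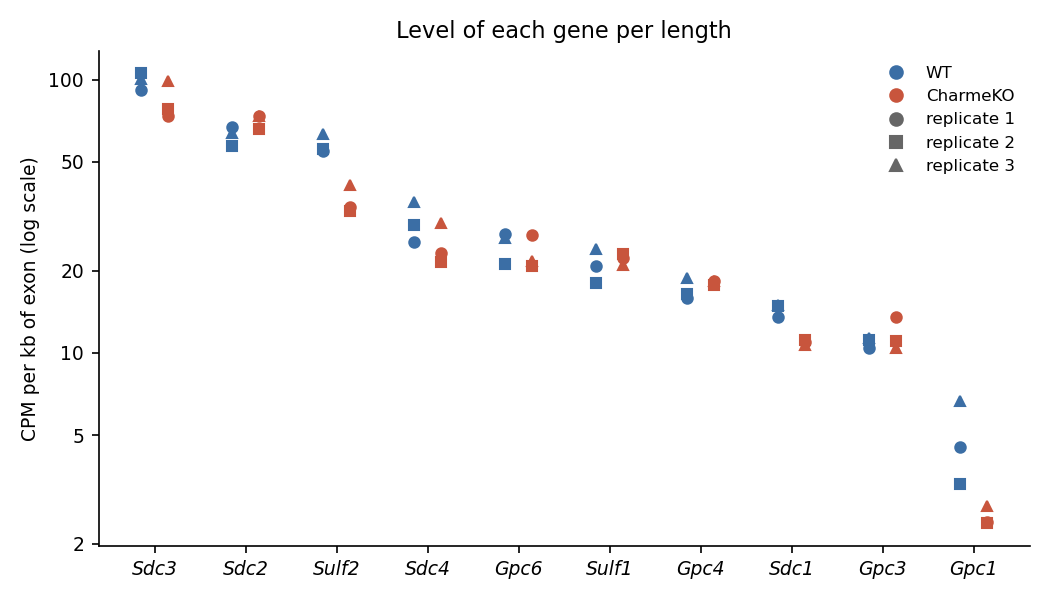
CPM per kb of exon (log scale) of each gene, ordered from the highest to the lowest mean, in WT and CharmeKO libraries. *Sdc3* had the highest mean at 91.2 CPM per kb and *Gpc1* the lowest at 3.67.

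*Sulf2* was at 322, 327 and 372 CPM in WT replicates 1, 2 and 3 and at 201, 194 and 242 CPM in CharmeKO replicates 1, 2 and 3. The lowest WT library was above the highest CharmeKO library. *Sulf2* fell from a mean of 340.2 ± 27.6 CPM in WT to 212 ± 25.6 CPM in CharmeKO (SD, n = 3 each), or 62.4% of the WT level. The log2 fold change was −0.68 (standard error 0.13, 95% interval −0.97 to −0.39, adjusted p = 0.0381 in edgeR). The call held in DESeq2 (adjusted p = 4.71e-05) but depended on single libraries. In edgeR the adjusted p was 0.0934 without WT replicate 1, 0.193 without WT replicate 3, 0.225 without CharmeKO replicate 1 and 0.234 without CharmeKO replicate 2, with log2 fold changes between −0.72 and −0.61 in these 4 fits of 5 libraries. It was 0.0188 without WT replicate 2 and 0.0287 without CharmeKO replicate 3. With a term for the *Xist* and Y-linked split of the libraries, the log2 fold change of *Sulf2* was −0.62 and the adjusted p in edgeR 0.0554. Among the libraries with *Xist*, *Sulf2* was at 322 CPM in the single WT library and at 198 CPM on average in the 2 CharmeKO libraries. Among those with Y-linked transcripts, it was at 349 CPM on average in 2 WT libraries and at 242 CPM in the single CharmeKO library.

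*Sulf1* encodes the other heparan 6-O-endosulfatase, with the same active site. It was at 234, 203 and 272 CPM in the WT libraries and at 251, 259 and 237 CPM in the CharmeKO libraries. The groups overlapped, with all CharmeKO values inside the WT range. The log2 fold change of *Sulf1* was 0.08 (standard error 0.13, 95% interval −0.22 to 0.37, adjusted p = 0.862 in edgeR), and it was −0.025 without WT replicate 2.

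The ratio of both sulfatases within a library does not depend on the scaling between libraries. The log2 ratio of *Sulf2* to *Sulf1* counts was 0.46, 0.69 and 0.45 in the WT libraries and −0.32, −0.42 and 0.030 in the CharmeKO libraries. No CharmeKO library reached the lowest WT library. The mean log2 ratio was 0.53 ± 0.13 in WT and −0.23 ± 0.23 in CharmeKO, with a CharmeKO minus WT difference of −0.77. An exact two-sided permutation test gave p = 0.1, and with 3 libraries per group no smaller p can be reached. In geometric means, *Sulf2* had 1.45 counts for each *Sulf1* count in WT and 0.850 in CharmeKO. With 1 library left out in turn, the difference stayed between −0.90 and −0.68. Per kb of exon, *Sulf2* made up 73.6 ± 1.79% (SD, n = 3) of the sulfatase mRNA in WT and 62.0 ± 3.78% in CharmeKO, and the sum of both was 78.9 ± 7.50 and 58.2 ± 3.39 CPM per kb.

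**Figure D3:**
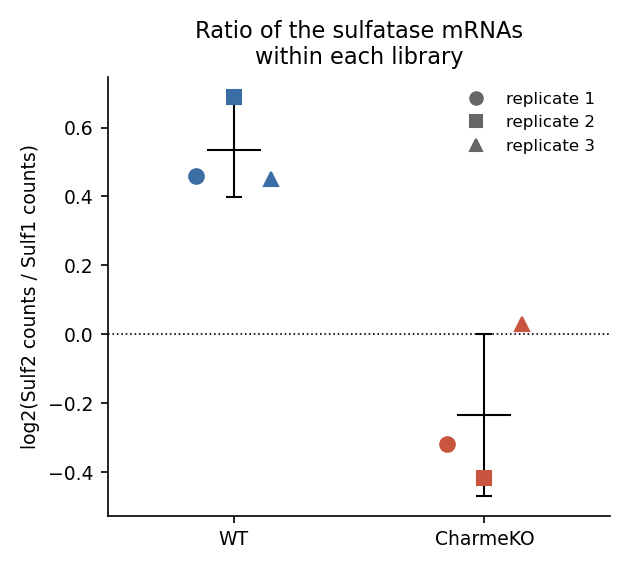
Log2 ratio of *Sulf2* to *Sulf1* counts within each library (y axis), by genotype, with black bars for the mean and SD of 3 libraries and a dotted line at equal counts. The WT libraries lay between 0.45 and 0.69 and the CharmeKO libraries between −0.42 and 0.030.

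*Sdc1*, a syndecan with heparan and chondroitin sulfate chains that is most abundant on epithelia and plasma cells, was at 51.5, 56.7 and 57.1 CPM in WT and at 41.8, 42.3 and 40.8 CPM in CharmeKO. The libraries did not overlap and the CharmeKO values lay close together. The log2 fold change was −0.40 (standard error 0.11, 95% interval −0.63 to −0.17), and the adjusted p was 0.140 in edgeR and 0.0602 in DESeq2, both above the threshold. *Sdc1* passed the threshold in 0 of 13 alternatives. Of the plasma cell markers, *Tnfrsf17* had 0 counts in all libraries and *Jchain* was between 0.235 and 1.33 CPM in WT and between 0 and 0.132 CPM in CharmeKO, and the summed markers were between 143 and 158 CPM in WT and between 140.3 and 156 CPM in CharmeKO, most of it from *Xbp1*. Of the 4 tested plasma cell markers, 4 had lower values in CharmeKO, 1 had an unadjusted p-value under 0.05 in edgeR, and 0 passed the threshold in edgeR or DESeq2. Of all genes tested, 48.8% had lower values and 12.8% an unadjusted p-value under 0.05 in edgeR. The part of these cells in the *Sdc1* level was not tested.

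*Sdc2* was at 236, 202 and 225 CPM in WT and at 260, 232 and 259 CPM in CharmeKO. The groups overlapped through CharmeKO replicate 2 and WT replicate 1, and the log2 fold change was 0.18 (95% interval −0.084 to 0.44, adjusted p = 0.575 in edgeR). *Sdc3* was at 548, 632 and 600 CPM in WT and at 439, 466 and 593 CPM in CharmeKO, where CharmeKO replicate 3 stood among the WT libraries. Its log2 fold change was −0.25 (95% interval −0.56 to 0.066, adjusted p = 0.502 in edgeR). *Sdc4*, the syndecan of focal adhesions, was at 64.9, 74.9 and 90.5 CPM in WT and at 59.1, 54.6 and 75.8 CPM in CharmeKO, with replicate 3 the highest of each group. The groups overlapped for *Sdc4*, with a log2 fold change of −0.28 (95% interval −0.61 to 0.061, adjusted p = 0.486 in edgeR).

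As shares of the syndecan sum per kb, *Sdc3* made up 48.0 ± 2.58% (SD, n = 3) in WT and 43.7 ± 3.03% in CharmeKO, and *Sdc2* 30.4 ± 3.19% and 37.5 ± 3.07%. The *Sdc2* share lay between 27.6% and 33.9% in the WT libraries and between 34.5% and 40.7% in the CharmeKO libraries, without overlap. The *Sdc1* share was 7.01 ± 0.175% in WT and 5.80 ± 0.682% in CharmeKO. The sum of the 4 syndecans was 206 ± 8.50 CPM per kb in WT and 190.0 ± 20.0 CPM per kb in CharmeKO, with overlap between the groups.

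*Gpc1*, a glypican that acts as a co-receptor for FGF2, had the largest difference of the 10 genes by log2 fold change, at the lowest level. It was at 23.2, 17.1 and 34.4 CPM in WT and at 12.4, 12.3 and 14.2 CPM in CharmeKO. The WT libraries were far apart, and the lowest of them still lay above the highest CharmeKO library. Group means were 24.9 ± 8.78 and 13.0 ± 1.07 CPM, with a log2 fold change of −0.92 (standard error 0.22, 95% interval −1.40 to −0.45). The adjusted p was 0.102 in edgeR, above the threshold, and 0.00514 in DESeq2 on the same genes. Leaving out WT replicate 2 gave 0.00658 in edgeR with a log2 fold change of −1.14, and leaving out WT replicate 3 gave 0.294 with −0.64. These 2 log2 fold changes were the ends of their range with each of the 6 libraries left out in turn. In edgeR the adjusted p was 9.67e-06 with no gene filter and between 0.126 and 0.393 without each library other than WT replicate 2.

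*Gpc3*, a glypican that binds Hedgehog and Wnt proteins and whose loss causes overgrowth, was at 27.9, 29.9 and 30.4 CPM in WT and at 36.4, 29.8 and 28.1 CPM in CharmeKO. The groups overlapped, and its log2 fold change of 0.10 (95% interval −0.19 to 0.39, adjusted p = 0.818 in edgeR) was −0.019 without CharmeKO replicate 1. *Gpc4* was at 42.0, 43.4 and 49.8 CPM in WT and at 48.5, 46.8 and 48.4 CPM in CharmeKO, with all CharmeKO values inside the WT range. Its log2 fold change was 0.09 (95% interval −0.15 to 0.34, adjusted p = 0.791 in edgeR). *Gpc6*, the glypican with the highest level here, was at 175, 136 and 170 CPM in WT and at 174, 134 and 139 CPM in CharmeKO. Replicate 1 of both genotypes was the highest of its group for *Gpc6*, and the log2 fold change was −0.10 (95% interval −0.42 to 0.21, adjusted p = 0.817 in edgeR). For these 3 glypicans the intervals leave room for a change by up to 0.42 on the log2 scale.

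Of the glypican sum per kb, *Gpc6* made up 43.2 ± 3.31% (SD, n = 3) in WT and 41.7 ± 2.19% in CharmeKO, and *Gpc4* 29.5 ± 2.06% and 32.8 ± 2.52%. The *Gpc1* share lay between 6.38% and 10.6% in WT and between 3.92% and 5.18% in CharmeKO, without overlap. The glypican sum was 57.7 ± 5.58 CPM per kb in WT and 55.4 ± 5.13 CPM per kb in CharmeKO. Of the glypicans outside the 10 genes, *Gpc5* had 0 counts in all libraries, which allows up to between 0.0713 and 0.313 CPM for counting error only, and *Gpc2* had between 0 and 15 counts and was not tested.

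**Figure D4:**
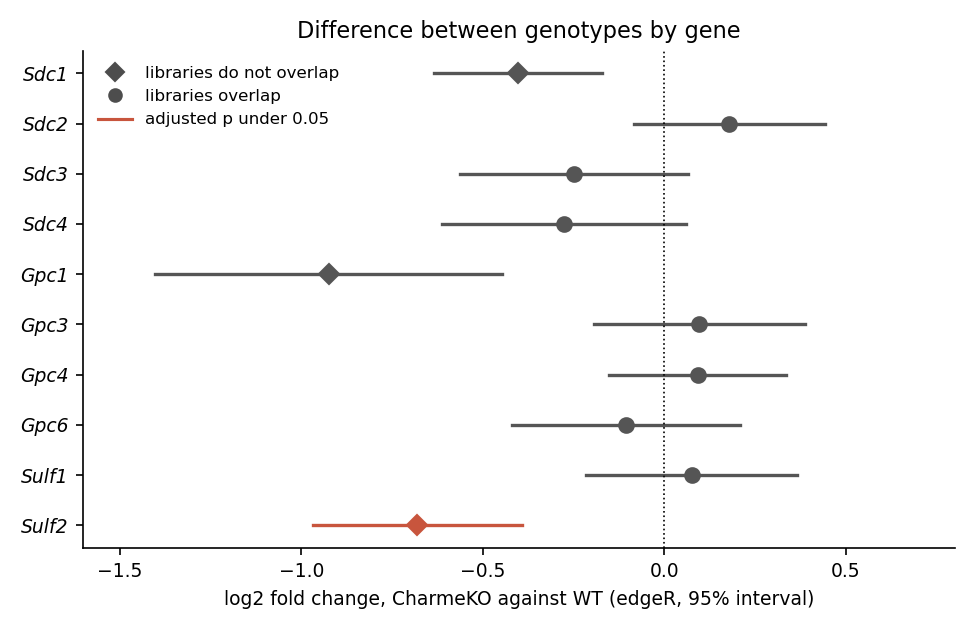
Log2 fold change of each gene, CharmeKO against WT, with its 95% interval from edgeR, diamonds for genes whose libraries did not overlap and red for an adjusted p under 0.05. *Sulf2* was the 1 gene past the threshold at −0.68, and *Gpc1* had the lowest value at −0.92 with the widest interval.

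Several marker lists moved with the genotype, and the members were also read relative to the main cell types. Of 7 tested epicardial and mesothelial markers, 7 had lower values in CharmeKO and 1, *Wt1*, passed the threshold in edgeR. Their sum was between 57.9 and 75.4 CPM in WT and between 34.1 and 41.5 CPM in CharmeKO, and none was at 0 in all libraries. Most of the sum came from *Wt1*, at 50.8 ± 4.02 CPM in WT and 32.3 ± 1.05 CPM in CharmeKO. Of the 7, 2 did not overlap between the groups, *Wt1* and *Lrrn4*. *Msln*, *Upk3b* and *Lrrn4* were at 0 in CharmeKO replicate 1 and *Upk1b* in CharmeKO replicate 2. Of 10 cardiomyocyte markers, 10 had higher values in CharmeKO, 8 had an unadjusted p-value under 0.05 in edgeR and 7 did not overlap. In edgeR 2 of them, *Tnni3* and *Myh6*, passed the threshold, and DESeq2 called 5. The sum of the cardiomyocyte markers was between 297 and 379 CPM in WT and between 427 and 646 CPM in CharmeKO. Of 15 dissociation response genes, *Hspa1a* and *Hspa1b* were higher past the threshold, while the sums of the list overlapped. Of 6 erythroid genes, 6 had lower values in CharmeKO, and *Slc4a1*, which encodes the red cell anion exchanger, passed the threshold with a log2 fold change of −1.82 (adjusted p = 0.00555 in edgeR). The part of these cells and of the dissociation in the *Sulf2*, *Gpc1* and *Sdc1* levels was not tested. The summed fibroblast, endothelial and mural markers overlapped between the groups, with CharmeKO minus WT log2 differences of −0.082, 0.10 and −0.022. In edgeR 0 of their 12, 12 and 10 genes passed the threshold, with 4, 4 and 2 at an unadjusted p-value under 0.05, and DESeq2 called 2, 1 and 1. Of all genes tested, edgeR called 0.83%, 12.8% had an unadjusted p-value under 0.05 in edgeR, and DESeq2 called 2.5%. Values were lower in CharmeKO for 48.8% of all genes tested. Without overlap between the groups, 8.59% of all genes tested were lower in CharmeKO and 9.57% higher.

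Relative to the summed fibroblast markers of the same library, *Sulf2* was at −6.68 ± 0.22 on the log2 scale in WT and at −7.28 ± 0.062 in CharmeKO, a difference of −0.60 without overlap. The difference was −0.79 relative to the endothelial and −0.66 relative to the mural markers. For *Gpc1* these differences were −0.81, −0.99 and −0.87, and for *Sdc1* they were −0.32, −0.50 and −0.38, again without overlap. *Gsn*, an actin-severing protein gene with a log2 fold change of 0.03, made up between 53.1% and 68.4% of the fibroblast sum. Without *Gsn*, the difference relative to the fibroblast markers was −0.42 for *Sulf2* and −0.62 for *Gpc1*, without overlap, and −0.14 for *Sdc1*, with overlap. The collagen gene *Col1a1* of that list had a log2 fold change of −0.77 (adjusted p = 0.189 in edgeR), and the log2 ratio of *Sulf2* to *Col1a1* overlapped, between −3.76 and −3.26 in WT and between −3.74 and −3.16 in CharmeKO. *Sdc2* relative to the fibroblast markers was higher in CharmeKO by 0.26, and by 0.44 without *Gsn*, both without overlap. Relative to the endothelial and mural markers it was higher by 0.079 and 0.20, with overlap. *Sdc3* differed by −0.36 relative to the endothelial markers, without overlap, and overlapped relative to the fibroblast and mural markers. *Sdc4*, *Gpc3*, *Gpc4*, *Gpc6* and *Sulf1* overlapped relative to each summed list. The share of all genes without overlap relative to these sums was not computed.

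The genes around the 10 members, 107 in 8 lists, build, carry, modify, shed, degrade or bind heparan sulfate, or, in the last list, respond to FGF signalling. Of 92 tested, 0 passed the threshold in edgeR, with the lowest adjusted p at 0.0884, and 20, or 21.7%, had an unadjusted p-value under 0.05, 13 of them lower and 7 higher, against 12.8% of all genes tested. DESeq2 called 5 of the 92, against 2.5% of all genes tested, *Hspg2*, *Col18a1*, *Mmp2* and *Mmp14* lower and *Fgf10* higher. The median log2 fold change over the 92 genes was −0.026. The libraries of 25 genes did not overlap, 14 lower and 11 higher, which is 27.2% against 18.2% of all genes tested.

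Among 8 tested genes of other heparan sulfate core proteins, the median log2 fold change was −0.27. *Col18a1*, a basement membrane collagen with heparan sulfate chains, averaged 338 ± 47.2 CPM in WT against 223 ± 32.6 CPM in CharmeKO, with an adjusted p of 0.118 in edgeR and 0.00474 in DESeq2. *Hspg2*, which encodes perlecan, was at 15055 ± 2224 and 9863 ± 2660 CPM, with an adjusted p of 0.242 in edgeR. In the lists of chain assembly, the genes with the lowest p-values were *Xylt1*, which adds the first xylose, and *Fam20b*, a kinase of that xylose. *Xylt1* was at 41.5 ± 4.31 and 30.6 ± 3.85 CPM and *Fam20b* at 67.1 ± 4.60 and 79.0 ± 3.02 CPM, with adjusted p-values of 0.207 and 0.387 in edgeR. The polymerase genes *Ext1* and *Ext2* had log2 fold changes of 0.10 and −0.020.

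The 10 tested genes of chain modification had a median log2 fold change of −0.056. *Hs6st1*, which places the 6-O-sulfates that the SULF enzymes remove, averaged 56.6 ± 7.51 CPM in WT against 41.0 ± 6.56 CPM in CharmeKO, with an adjusted p of 0.212 in edgeR. Its libraries lay between 50.1 and 64.8 CPM in WT and between 35.7 and 48.3 CPM in CharmeKO, without overlap. *Ndst1*, which places N-sulfates, was at 177 ± 4.88 and 147 ± 13.7 CPM, with an adjusted p of 0.352 in edgeR. *Hs6st2* overlapped between the groups at 3.52 ± 1.21 and 5.83 ± 1.61 CPM, and *Hs6st3* was not tested. *Sumf1*, whose product forms the catalytic formylglycine of all sulfatases, was at 43.3 ± 3.25 and 42.6 ± 3.97 CPM, with a log2 fold change of −0.025.

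In the list of precursor supply, *Ugdh* and *Papss1* had the lowest p-values, with log2 fold changes of −0.43 and 0.16 and adjusted p-values of 0.291 and 0.609 in edgeR. In the list of degradation, the lysosomal enzyme genes *Naglu* and *Sgsh* had log2 fold changes of −0.37 and −0.32 and adjusted p-values of 0.298 and 0.410 in edgeR. Of the sheddases, *Mmp14* averaged 236 ± 15.9 CPM in WT against 163 ± 19.1 CPM in CharmeKO, with an adjusted p of 0.102 in edgeR. *Mmp2* was at 1548 ± 257 and 978 ± 156 CPM, with an adjusted p of 0.123 in edgeR. The syntenin gene *Sdcbp* was at 231 ± 25.9 and 254 ± 21.1 CPM, with overlap between the groups. Among ligands, *Fgf10* had between 0.353 and 0.913 CPM in WT and between 1.75 and 3.65 CPM in CharmeKO, with a log2 fold change of 2.15 and an adjusted p of 0.0884 in edgeR. *Vegfa*, which encodes an angiogenic ligand that binds heparan sulfate, was at 133 ± 6.79 and 97.3 ± 15.4 CPM, with an adjusted p of 0.183 in edgeR. The 10 FGF feedback genes, whose mRNA rises with FGF signalling in many cells, had a median log2 fold change of −0.0053, with *Etv1* at 0.27 and *Etv4* at −1.03 as those with the lowest p-values, and 0 of them had an unadjusted p-value under 0.05 in edgeR or passed the threshold in DESeq2.

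**Figure D5:**
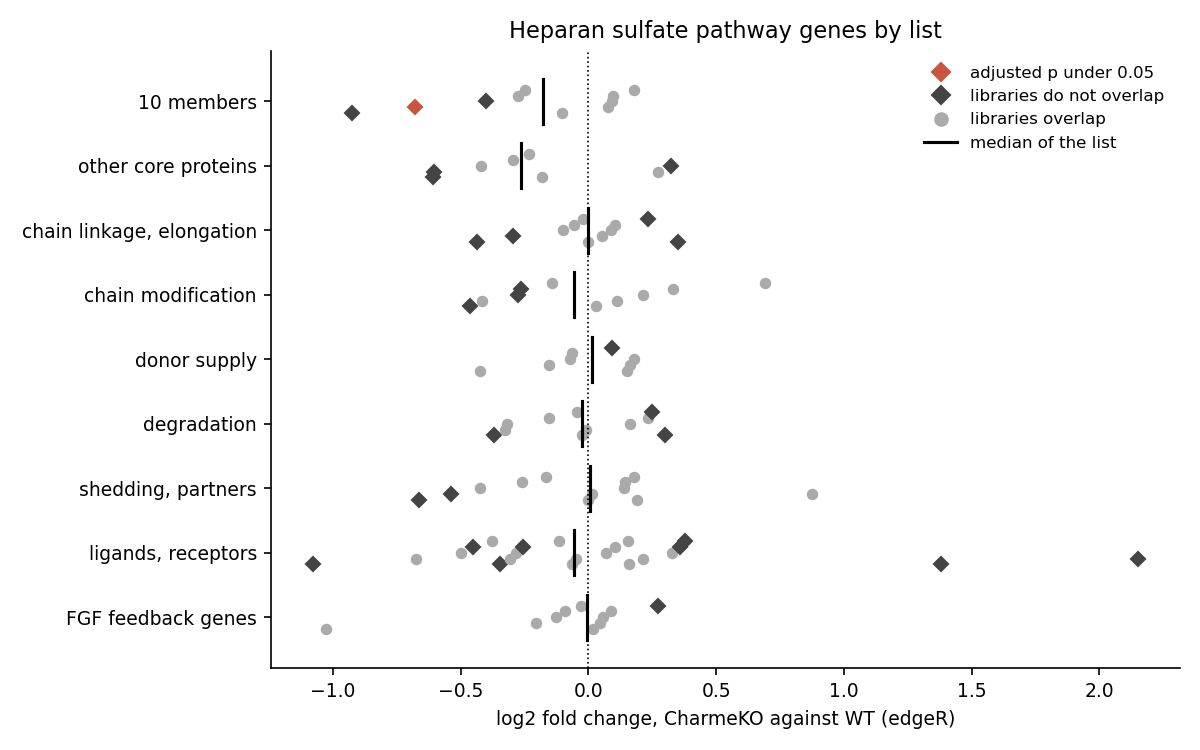
Log2 fold change (edgeR, CharmeKO against WT) of the 10 members and of the tested genes of 8 heparan sulfate lists, with diamonds for genes whose libraries did not overlap, red for an adjusted p under 0.05 and a bar at the median of each list. *Sulf2* was the 1 red point, and the medians of the pathway lists lay between −0.27 for other core proteins and 0.013 for donor supply.

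The profile of *Sulf2* over the 6 libraries, as log2(CPM + 1) centred on its own mean, was most like that of *Lpin3*, which encodes a lipin phosphatase, with a root mean square difference of 0.040 on the log2 scale. *Aste1* followed at 0.049 and *Gm45705* at 0.051, where *Sulf2* itself departed from its mean by 0.36. *Lpin3* averaged 28.3 ± 1.81 CPM in WT against 17.1 ± 1.99 CPM in CharmeKO, with an adjusted p of 0.0330 in edgeR. For *Aste1* and *Gm45705* the adjusted p was 0.153 and 0.216 in edgeR, above the threshold. These genes were picked for profiles near that of *Sulf2* in the same libraries, so a like difference between genotypes follows from the choice.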

How the data were processed

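RNA of native CFs was sequenced by the authors in directional poly(A)-selected libraries, 3 WT and 3 CharmeKO. Reads were trimmed and filtered for quality and aligned with STAR by the authors to a mouse assembly. The submitters' processing notes list GRCm39 and, beside it, GRCh38. The authors deposited raw counts per gene, without normalization or gene filter. These came from the reverse strand setting of an Ensembl annotation to which *Charme* was added. Groups and replicate numbers came from the labels. The methods name 3 mice per genotype but do not tie each library to 1 mouse, so p-values measure the spread between these samples. Within each group no pair of libraries was a duplicate, and pairs between the groups were not checked.

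The gene filter kept those with 10 or more counts in 2 or more libraries, which were normalized by TMM and tested with edgeR 4.0.16 (quasi-likelihood test) in R 4.3.3. Standard errors came from the F statistic and 95% intervals from its degrees of freedom. In a simulation of this comparison with 15315 genes, 200 of them changed by 1.5 on the log2 scale, edgeR recovered 178 and called 10 others. It gave all genes the same dispersion and used a change larger than that of any member (*Gpc1*, −0.92). It therefore does not give the recovery of changes as small as those of the members. Alternatives were DESeq2 1.42.0, other normalizations and filters, a replicate block, a term for *Xist* and Y-linked transcripts, and each library left out in turn. Lengths and coding sequences came from GENCODE M21 (no protein table was used here), and blastn 2.17.0 was used to compare transcripts. All 10 members are named. From each pathway list the genes past the threshold were to be named, and where there were none, the 2 with the lowest p; *Ext1*, *Ext2*, *Hs6st2*, *Hs6st3*, *Sumf1*, *Sdcbp* and the marker genes were named after their values were seen. The 3 profiles nearest to a member are given for members past the threshold. Members and lists were chosen with earlier results of these data known. Figures were drawn with matplotlib 3.10.9.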

Additional observations from a re-analysis of the deposited data

How the results depend on the processing

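The number of genes past the threshold in edgeR, 131 of 15789, was 394 with DESeq2, 699 with no gene filter and 302 with the replicate block, and lay between 61 and 349 with 1 library left out in turn. The calls were 50.4% higher in edgeR, 39.1% in DESeq2 and 36.2% with no gene filter. The members past the threshold were 2, *Gpc1* and *Sulf2*, with DESeq2, with no gene filter and with the replicate block, 0 with the term for *Xist* and Y-linked transcripts, and between 0 and 2 with 1 library left out, 2 of them without WT replicate 2, 1 without CharmeKO replicate 3 and 0 without each of the other 4. The pathway genes past the threshold, 0 in edgeR, were 5 with DESeq2, 8 with no gene filter, 4 with the replicate block, 1 with the *Xist* and Y-linked term and between 0 and 3 with 1 library left out. Fits without 1 library hold fewer samples; otherwise the cause was not tested.

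Under the replicate block the adjusted p in edgeR was 0.0109 for *Sulf2* and 0.0263 for *Gpc1*. Deviations of libraries with the same number correlated across genes between 0.0535 and 0.216, above 0.1 in 2 of 3 pairs. Of 6 libraries, 6 correlated best with their own number, but replicate 2 by little, at 0.0535 against 0.0391 and 0.0340. The pairs above 0.1, replicates 1 and 3, also shared the *Xist* or Y-linked state, and replicate 2 did not. The methods state no pairing. In the labels, the numbers after S alternate between the genotypes, while those after MB run through WT first and then through CharmeKO. The correlation of libraries with the same number is a hint, and its cause was not tested. The log2 fold changes of the members kept their direction and side of the threshold in 119 of 130 alternative values. With 1 library left out, *Sulf1* lay between −0.025, without WT replicate 2, and 0.19, and *Gpc3* between −0.019, without CharmeKO replicate 1, and 0.17.

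The length of the transcript with the longest coding sequence was an alternative chosen after seeing the data. With it, the mean share over all libraries moved from 45.9% to 49.7% for *Sdc3* among the syndecans. It moved from 42.4% to 63.9% for *Gpc6* among the glypicans and from 67.8% to 57.4% for *Sulf2* among the sulfatases. Relative to the fibroblast markers without *Gsn*, also chosen after seeing the data, the difference of *Sdc1* moved from −0.32 to −0.14. Other normalizations moved the median of all genes to no more than 0.023 on the log2 scale. WT replicate 3 had the fewest reads, and for genes with few counts, such as *Gpc2* and *Hs6st3*, a difference was not detectable at this depth.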

Other observations

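Among the ligands and receptors of the heparan sulfate lists, 4 of 22 tested genes were lower and 4 higher in CharmeKO with no overlap between libraries. Of all genes tested, 8.59% were lower and 9.57% higher without overlap. Those of these ligands and receptors not given in the report are described here with *Srgn*, picked after their values were seen. In the other lists, *B3galt6*, *Pxylp1*, *Hs2st1*, *Papss2*, *Sumf2* and *Hgsnat* did not overlap either and are not described. *Fgf7*, a ligand of epithelia made by fibroblasts, had between 0.685 and 1.83 CPM in WT and between 2.27 and 4.12 CPM in CharmeKO (adjusted p = 0.232 in edgeR), and its receptor gene *Fgfr2* averaged 3.05 ± 0.268 CPM in WT (SD, n = 3) against 1.43 ± 0.435 CPM in CharmeKO (adjusted p = 0.244 in edgeR). *Pdgfb*, an endothelial ligand that heparan sulfate retains near its source, was at 164 ± 22.5 and 129 ± 8.27 CPM (adjusted p = 0.292 in edgeR). The VEGF receptor gene *Kdr* was at 854 ± 98.7 and 1110 ± 125 CPM (adjusted p = 0.298 in edgeR), the chemokine gene *Cxcl12* at 921 ± 115 and 1182 ± 68.4 CPM (adjusted p = 0.302 in edgeR), and *Pdgfrb*, the receptor gene of mural cells and fibroblasts, at 326 ± 35.6 and 273 ± 32.8 CPM (adjusted p = 0.467 in edgeR). Among the other core proteins, *Srgn*, of secretory granules, was at 131 ± 7.20 and 164 ± 17.4 CPM (adjusted p = 0.292 in edgeR). With the gene filter, these 7 genes did not pass the threshold in edgeR or DESeq2, and with no gene filter *Fgf7* did in edgeR.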
